A study of Homo sapiens with 24 samples.

Results

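The genes described here are those of the signalling lymphocytic activation molecule (SLAM) receptor family that were chosen by symbol, together with the adaptor that these receptors share. They are the receptors CD244, SLAMF1, SLAMF6 and LY9, the ligand CD48 and the adaptor gene SH2D1A, 6 of the 15862 genes in the deposited table. All 6 symbols were found, each in 1 row. RNA-seq of 24 libraries measured them in a pair of human cell lines of T-cell acute lymphoblastic leukaemia. LOUCY stands for the early precursor form of this disease, and JURKAT for a form blocked later in T-cell development.

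JURKAT was untreated in 6 libraries and LOUCY was untreated in 6. LOUCY was also kept for 24 h in 0.05% DMSO (4 libraries), in 250 nM JQ1 (4 libraries) or in 500 nM I-BET151 (4 libraries). JURKAT was not treated, so nothing here bears on these inhibitors outside LOUCY. The work was done as 2 independent experiments, each holding 3 libraries of both untreated groups and 2 of every other group. JQ1 and I-BET151 are chemically different inhibitors that block the acetyl-lysine pockets of BET proteins, chromatin readers that promote transcription, and their doses differed. All cells grew in the same serum-containing RPMI-1640 medium. Each line is a single culture-adapted leukaemia, so a difference between them is a difference between these 2 lines.

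SLAM receptors are immunoglobulin-superfamily proteins on blood cells. Most bind a copy of themselves on the neighbouring cell, whereas CD244 (also called 2B4) binds CD48, a protein held to the membrane by a lipid anchor that has no signalling tail. The tails of CD244, SLAMF1, SLAMF6 and LY9 carry tyrosine motifs that, once phosphorylated, recruit SAP, a protein of little more than a single SH2 domain encoded by SH2D1A. SAP brings the kinase FYN to the receptor and keeps inhibitory phosphatases away. Its loss causes X-linked lymphoproliferative disease. In thymocytes, SLAMF1, SLAMF6 and SAP are known for their part in selecting innate-like T cells, and CD244 is known from natural killer and cytotoxic T cells.

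The 5 surface genes lie in 1 cluster on chromosome 1. In GENCODE 29 (GRCh38), the cluster runs from 160485030 to 160862855, over 378 kb, and holds 7 protein-coding genes, all of them SLAM family genes. From low to high coordinates these are SLAMF6 (160485030 to 160523262, minus strand), CD84, SLAMF1 (160608100 to 160647295, minus strand), CD48 (160678746 to 160711851, minus strand), SLAMF7, LY9 (160796074 to 160828261, plus strand) and CD244 (160830160 to 160862855, minus strand). SH2D1A is on the plus strand of chromosome X, from 124227868 to 124373197. The annotated extent of SH2D1A overlaps STAG2 and TEX13D on the same strand, an antisense transcript overlaps 21016 bases of CD48, and the pseudogene PPIAP37 lies inside CD244. The libraries do not record strand, and the handling of reads in shared bases was not stated in the labels.

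RefSeq promoter sequences on GRCh38.p14 were matched for 5 of the 6 genes. LY9 was not matched. RefSeq starts differ from the GENCODE extents given above, and the RefSeq start of SH2D1A lies well inside its GENCODE extent, which begins further upstream. The sequences printed here are the 250 bases before the RefSeq start of CD244 and SH2D1A, which both fell in the inhibitor groups, and of CD48, which did not pass the test there. They read 5′ to 3′ on the strand of the gene, and capitals mark CG dinucleotides, the bases at which mammalian DNA is mostly methylated.
CD244, minus strand, chr1:160862888-160863137: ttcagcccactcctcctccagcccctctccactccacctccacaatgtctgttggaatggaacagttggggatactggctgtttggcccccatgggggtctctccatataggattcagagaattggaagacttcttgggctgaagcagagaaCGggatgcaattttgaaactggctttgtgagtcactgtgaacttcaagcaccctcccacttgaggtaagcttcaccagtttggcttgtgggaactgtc
SH2D1A, plus strand, chrX:124346313-124346562: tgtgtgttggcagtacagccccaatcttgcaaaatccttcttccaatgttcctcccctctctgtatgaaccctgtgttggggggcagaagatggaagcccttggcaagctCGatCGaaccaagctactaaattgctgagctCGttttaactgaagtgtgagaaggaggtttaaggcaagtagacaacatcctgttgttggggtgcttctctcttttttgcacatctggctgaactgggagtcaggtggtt
CD48, minus strand, chr1:160711823-160712072: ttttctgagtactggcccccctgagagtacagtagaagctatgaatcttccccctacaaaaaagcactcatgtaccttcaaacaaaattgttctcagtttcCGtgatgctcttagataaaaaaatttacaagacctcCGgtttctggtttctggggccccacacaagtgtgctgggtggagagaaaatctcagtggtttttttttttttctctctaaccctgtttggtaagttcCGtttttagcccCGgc

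All 5 matched promoters held few CG dinucleotides. Over a window of 300 bases, 250 before the start and 50 after it, SLAMF6 had 1, CD244 had 2, SH2D1A had 4, and SLAMF1 and CD48 had 5 each. The median of the 35116 promoters of the same length was 14, and 33.7% of them had 5 or fewer. Beside CG, 6 motifs were searched on both strands, and no match overlapped a match of another motif. CANNTG (the E-box, present in 68.7% of all promoters) was found at -188 and -42 from the start of CD244, at -29 and -9 in SH2D1A, at -87 and 19 in CD48 and at 42 in SLAMF1. TGAGTCA (the AP-1 site, 4.95% of promoters) was found in CD244 alone of the 5, at -71. AGGAAG (an ETS-type core, 33.6%) was found at -35 in SLAMF6 and -43 in SLAMF1, and GATAA (22.7% of promoters, the core of sites of the GATA family) at -161 in SLAMF6 and -136 in CD48. TGTGGT (a RUNX-type core, 13.1%) and TATAAA (the TATA box, 11.5%) had no match in these windows.

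Levels are given in RPKM, read counts scaled by the authors to gene length and library size. Recovered read totals were 4381134 to 7074198 per library. SH2D1A rested on 708 to 3543 reads per library, CD48 on 69 to 232 and CD244 on 13 to 707, whereas SLAMF1 rested on 0 to 8 reads in every library. Of 8 T-lineage markers, 6 had a group mean of at least 1 RPKM in untreated LOUCY, and CD2 (0.0562 ± 0.0924 RPKM, SD, n = 6) and CD5 (0.305 ± 0.136) did not. All 8 reached it in JURKAT. HEXIM1, a gene known to rise under BET inhibition, was at 19.7 ± 2.21 RPKM in DMSO, 53.1 ± 2.72 in JQ1 and 50.8 ± 7.05 in I-BET151 (SD, n = 4 each). In 3 libraries, all of experiment 2 (1 each of untreated LOUCY, DMSO and I-BET151), departures from the group's mean levels followed gene GC content more steeply than in the other 21. Results were also computed without these 3.

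The 6 genes divided by line and by treatment. JURKAT held SLAMF6 and LY9, whereas untreated LOUCY held CD244 at 33.5 times its level in JURKAT. CD48 and SH2D1A were present in every library. Both inhibitors lowered CD244 and SH2D1A in LOUCY, and neither moved CD48 past the test.

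**Figure D1:**
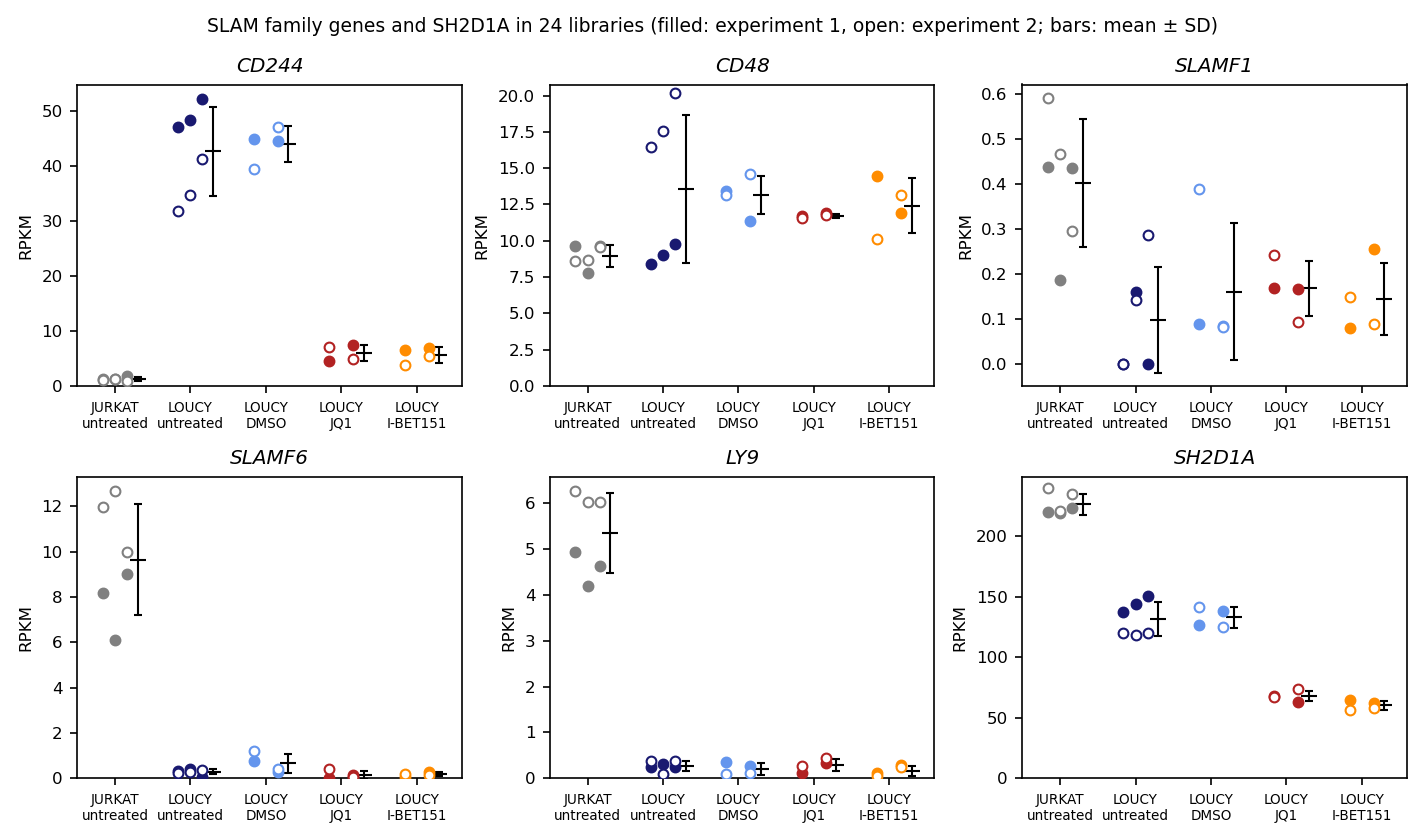
RPKM (linear axes) of the 6 genes in each library of the 5 groups, with filled points for experiment 1, open points for experiment 2 and bars for mean ± SD. CD244 falls from 39.4 to 47.0 RPKM in DMSO to 3.82 to 7.45 RPKM in the inhibitor groups, SLAMF6 and LY9 are high in JURKAT alone, and untreated LOUCY splits by experiment for CD48.

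Untreated LOUCY was compared with untreated JURKAT first. The test was limma on log2(RPKM + 1) with the experiment as a term, over the 11978 genes at 1 RPKM or more in at least 4 of the 12 libraries, and a gene was called at a Benjamini-Hochberg adjusted p under 0.05. Differences on this scale understate the change of genes near or below 1 RPKM. Nothing in the labels says that the replicates of an experiment were separate cultures, so p-values measure the spread between these libraries, which may be technical. All 5 tested members were called, 2 higher and 3 lower in LOUCY. The same was true of 73.1% of all tested genes (35.5% higher and 37.5% lower), so being called is the usual case between these lines. SLAMF6 and LY9 passed the filter only through JURKAT. SLAMF1 did not pass it. Where groups are said not to overlap, in this and all later comparisons, the share of all genes that also did not overlap is not given.

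CD244 was higher in LOUCY. Its RPKM in JURKAT was 0.876 at the lowest, 1.24 at the median and 1.83 at the highest of 6 libraries. In untreated LOUCY it was 31.9 at the lowest, 44.2 at the median and 52.2 at the highest. Every LOUCY library lay above every JURKAT library, and the group means were 42.6 ± 8.05 and 1.27 ± 0.323 RPKM (SD, n = 6 each). The difference was 4.25 on the log2 scale (SE 0.09, limma adjusted p = 3.577e-15). CD244 lay above 86.8% of the listed genes in untreated LOUCY and above 33.1% in JURKAT.

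SLAMF6, a self-binding receptor of T, B and natural killer cells, had the opposite pattern. JURKAT libraries were at 8.16, 6.10 and 9.02 RPKM in experiment 1 and at 11.97, 12.7 and 9.98 in experiment 2. The 6 untreated LOUCY libraries lay between 0.0800 and 0.399 RPKM, which is 1 to 6 reads each. The groups did not overlap, and the mean was 34.4 times lower in LOUCY (log2 difference -3.03, SE 0.12, limma adjusted p = 5.301e-12). Because SLAMF6 passed the filter only through JURKAT, the direction of this difference was favoured in advance.

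LY9, another self-binding receptor, neighbours CD244 in the cluster and followed SLAMF6. It was at 4.93, 4.201 and 4.63 RPKM in JURKAT in experiment 1 and at 6.27, 6.03 and 6.02 in experiment 2. Untreated LOUCY ranged from 0.0934 to 0.383 RPKM, or 2 to 8 reads. Again the groups did not overlap, and the mean was 19.2 times lower in LOUCY (log2 difference -2.31, SE 0.10, limma adjusted p = 7.67e-12). LY9 too passed the filter only through JURKAT, which favoured this direction in advance. The start of the LY9 gene and that of CD244 are at opposite ends of the pair, since the genes are transcribed towards each other.

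SLAMF1, the receptor that gave the family its name and also an entry receptor of measles virus, was close to the limit of detection in both lines. It did not reach 1 RPKM in any of the 24 libraries. The JURKAT libraries held 30 reads in all (0.187 to 0.592 RPKM) and the untreated LOUCY libraries 8 (0 to 0.287 RPKM), with 0 reads in 3 of the 6. A count of 0 allows up to 3 reads, which correspond to 0.194 to 0.281 RPKM depending on the library, counting error alone. The groups overlapped. When no filter on low values was applied, the log2 difference was -0.35 (limma adjusted p = 0.001227), on these few reads.

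SH2D1A had the largest level of the 6 genes in each of the 5 groups. It was at 219.8, 218.9 and 223.2 RPKM in JURKAT in experiment 1 and at 239.6, 220.7 and 234.7 in experiment 2. Untreated LOUCY was at 137.3, 144.1 and 150.1 RPKM in experiment 1 and at 119.8, 118.6 and 119.9 in experiment 2. The groups did not overlap, and LOUCY was lower by a factor of 1.72 (log2 difference -0.78, SE 0.07, limma adjusted p = 7.618e-08). SH2D1A lay above 97.7% of the listed genes in JURKAT and above 95.7% in untreated LOUCY.

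CD48, the ligand of CD244, differed least, and its result depended on the experiment. JURKAT was at 9.64, 7.78 and 9.61 RPKM in experiment 1 and at 8.58, 8.66 and 9.55 in experiment 2. Untreated LOUCY was at 8.39, 9.01 and 9.80 RPKM in experiment 1 and at 16.4, 17.5 and 20.1 in experiment 2. The lines overlapped in experiment 1 and not in experiment 2. Over both, the difference was 0.47 (SE 0.15, limma adjusted p = 0.008991), but in experiment 1 alone it was 0.01 (limma adjusted p = 0.9408) and in experiment 2 alone 0.94. Over all alternatives of this comparison the adjusted p of CD48 ranged from 0.0001782 to 0.9408. The interaction of line and experiment was 0.92 and did not pass (limma adjusted p = 0.07177). Of all tested genes, 0.025% were called for that interaction.

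The composition of the surface genes followed from these levels. As a share of the summed RPKM of the 5 surface genes, CD244 made up 5.1% ± 1.65 in JURKAT and 74.6% ± 9.83 in untreated LOUCY (SD, n = 6). SLAMF6 made up 37.1% ± 4.9, CD48 35.4% ± 4.43 and LY9 20.8% ± 1.56 in JURKAT. In untreated LOUCY, CD48 made up 24.2% ± 9.67, and SLAMF6, LY9 and SLAMF1 were each below 1%.

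**Figure D2:**
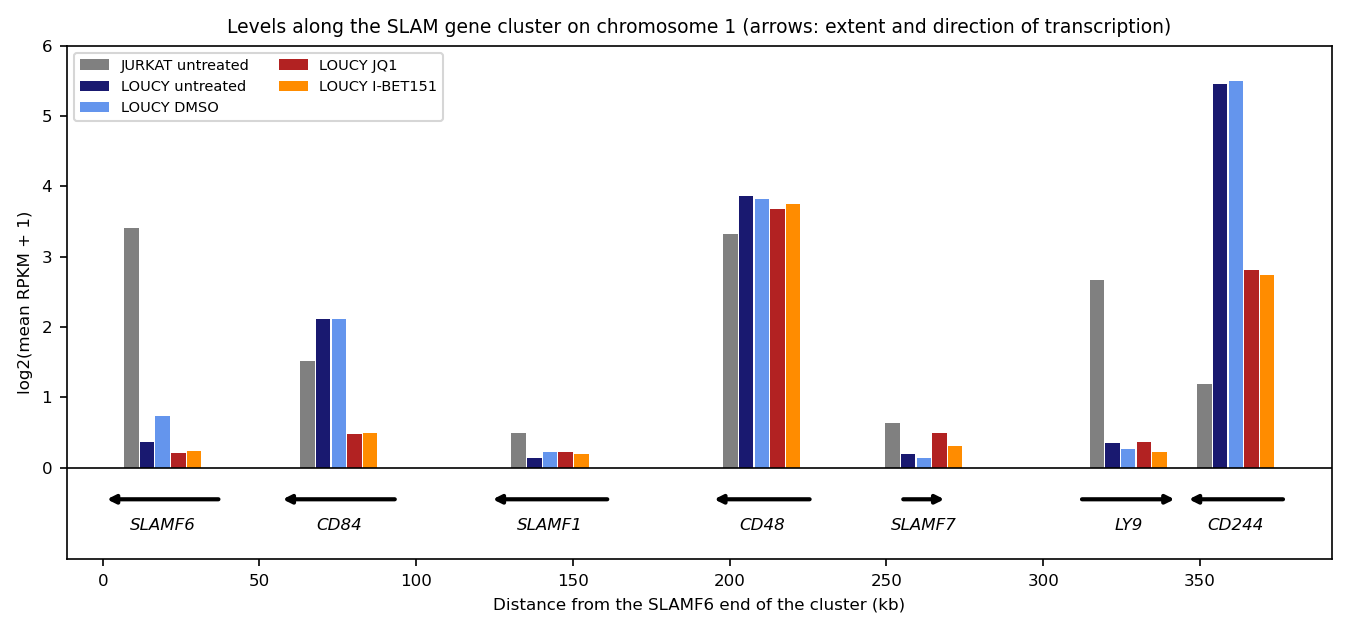
Mean level, as log2(mean RPKM + 1), of the 7 genes of the chromosome 1 cluster in the 5 groups, placed at their distance in kb from the SLAMF6 end; arrows show each gene's extent and direction. SLAMF6 and LY9 stand up in JURKAT, CD244 in LOUCY without inhibitor, and CD48 in all 5 groups. CD84 is highest in LOUCY without inhibitor (3.32 RPKM), lower in JURKAT (1.85) and lowest with JQ1 or I-BET151 (0.392 and 0.411).

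Of the 5 other genes listed for the family (SLAMF7, SLAMF8, SLAMF9, CD84 and the second adaptor gene SH2D1B), 3 were in the table and 1, CD84, passed the filter. CD84 is a self-binding receptor that also recruits SAP. It was at 3.32 ± 0.299 RPKM in untreated LOUCY and 1.85 ± 0.383 in JURKAT (SD, n = 6 each; log2 difference 0.61, limma adjusted p = 3.487e-05). SLAMF7 and SLAMF8 had group means of at most 0.545 and 0.266 RPKM. CD2 and CD58, related by structure to CD48, are each other's ligands in humans. CD2 was at 61.9 ± 7.39 RPKM in JURKAT and 0.0562 ± 0.0924 in untreated LOUCY, and CD58 was higher in LOUCY (47.8 ± 21.6 against 18.8 ± 5.37 RPKM, log2 difference 1.24, limma adjusted p = 5.243e-05).

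Outside the cluster, 19 genes of the same chromosome band were tested, of which 4 were higher and 8 lower in LOUCY (35.5% and 37.5% over all tested genes; median log2 difference -0.09, against -0.02 over all genes). Of the 26 listed signalling partners of SAP and SLAM receptors, 16 were higher and 6 lower in LOUCY, with a median of 0.52, where 35.5% of all tested genes were called higher and 37.5% lower. INPP5D, the lipid phosphatase SHIP1 that binds SLAM receptor tails in the absence of SAP, was at 30.1 ± 5.67 RPKM in untreated LOUCY against 1.99 ± 0.236 in JURKAT. The kinase LCK was at 198.3 ± 29.01 RPKM in untreated LOUCY against 346.3 ± 56 in JURKAT, and FYN at 14.2 ± 1.46 against 9.91 ± 0.757 (SD, n = 6 each). LCK was called lower and FYN and INPP5D higher in LOUCY (limma adjusted p = 1.838e-07, 0.0001554 and 3.176e-13). Of 17 tested transcription factors of T and natural killer cells, 9 were higher, ID2, RUNX3 and BCL6 with the smallest adjusted p, and 8 lower, among them TCF7, BCL11B and LEF1. Over all tested genes the shares were 35.5% and 37.5%. TCF7, like CD2, passed the filter only through JURKAT.

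DMSO, the solvent of the inhibitors, was then compared with no treatment in LOUCY. A single fit of all 18 LOUCY libraries, over 11411 genes, served this comparison and those that follow, and in it CD244, CD48 and SH2D1A passed the filter. The DMSO libraries were at 44.9 and 44.5 RPKM of CD244 in experiment 1 and at 39.4 and 47.0 in experiment 2. They all lay within the range of untreated LOUCY. The difference was 0.06 with a 95% interval from -0.24 to 0.36 (limma adjusted p = 0.9611).

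SH2D1A in DMSO was at 126.3 and 138.5 RPKM in experiment 1 and at 141.1 and 124.9 in experiment 2, also within the untreated range (difference 0.02, 95% interval -0.16 to 0.19, limma adjusted p = 0.9856). CD48 was at 13.4 and 11.4 RPKM in experiment 1 and at 13.2 and 14.6 in experiment 2. These 4 values lay between the untreated libraries of experiment 1 and those of experiment 2 (difference 0.03, 95% interval -0.34 to 0.39, limma adjusted p = 0.9889). None of the 3 tested members was called by limma, and none had an unadjusted p under 0.05 or was called from recovered reads. Of all tested genes, 0.175% were called.

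CD48 differed between the experiments in untreated LOUCY, and the cause was not tested. Its mean was 9.07 ± 0.709 RPKM in experiment 1 and 18.04 ± 1.898 in experiment 2 (SD, n = 3 each), a log2 difference of 0.92 (SE 0.12, limma adjusted p = 0.003561). Of all tested genes, 4.07% were called in that comparison. Untreated LOUCY replicate 2 of experiment 2 was among the libraries of steep GC slope. In untreated JURKAT the corresponding difference of CD48 was -0.01, and in DMSO, JQ1 and I-BET151 it was 0.15, -0.02 and -0.17, none of which passed (0.184%, 0.00876%, 0% and 0% of all tested genes did). CD244 in untreated LOUCY was at 49.3 ± 2.66 RPKM in experiment 1 and 36.0 ± 4.81 in experiment 2, and SH2D1A at 143.8 and 119.4. Neither of these passed over all genes (limma adjusted p = 0.06107 and 0.06429).

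**Figure D3:**
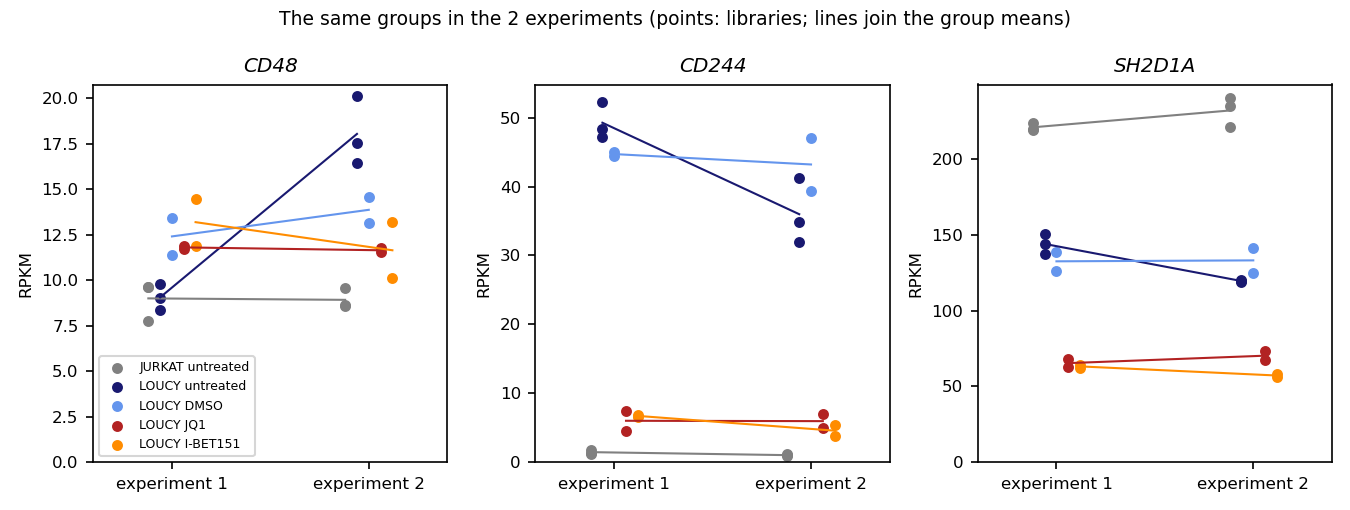
RPKM (linear axes) of CD48, CD244 and SH2D1A in experiments 1 and 2; points are libraries, colours the 5 groups, and lines join the group means of both experiments. For CD48 the untreated LOUCY line climbs from a mean of 9.07 to 18.04 RPKM while the JURKAT line stays near 9, and for CD244 and SH2D1A the inhibitor groups lie below DMSO in both experiments.

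Each inhibitor was compared with DMSO to measure the response to BET inhibition at 24 h. CD244 and SH2D1A fell under both, 2 of the 3 tested members. Of all tested genes, 26% were called for JQ1 (15.9% lower) and 26.3% for I-BET151 (15.9% lower). Both comparisons use the same 4 DMSO libraries. RPKM is relative to the library, so a change in the total RNA of a cell would not show, and in bulk RNA fewer cells of a kind and less RNA per cell cannot be told apart.

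CD244 was at 4.62 and 7.45 RPKM in JQ1 in experiment 1 and at 7.02 and 4.95 in experiment 2. In I-BET151 it was at 6.59 and 6.89 in experiment 1 and at 3.82 and 5.39 in experiment 2. All 8 inhibitor libraries lay below all 4 DMSO libraries, and no group reached the JURKAT range. The mean fell from 44.0 ± 3.26 RPKM in DMSO to 6.01 ± 1.43 in JQ1 and 5.67 ± 1.397 in I-BET151 (SD, n = 4 each), ratios of 7.31 and 7.75. The log2 differences were -2.70 (SE 0.16, limma adjusted p = 6.454e-10) and -2.78 (SE 0.16, limma adjusted p = 5.149e-10). CD244 then lay above 56.1% of the listed genes in JQ1 and 54.8% in I-BET151, against 87.5% in DMSO.

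SH2D1A was at 68.0 and 62.8 RPKM in JQ1 in experiment 1 and at 67.1 and 73.4 in experiment 2. In I-BET151 it was at 64.4 and 62.0 in experiment 1 and at 56.5 and 57.9 in experiment 2. These 8 libraries also lay below all DMSO libraries. The mean of 132.7 ± 8.28 RPKM in DMSO was 1.96 times that in JQ1 (67.8 ± 4.36) and 2.2 times that in I-BET151 (60.2 ± 3.65). The log2 differences were -0.96 (SE 0.09, limma adjusted p = 4.372e-07) and -1.13 (SE 0.09, limma adjusted p = 6.12e-08). SH2D1A lay above 92.1% of the listed genes in JQ1 and 90.8% in I-BET151.

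CD48 did not pass. It was at 11.7 and 11.9 RPKM in JQ1 in experiment 1 and at 11.6 and 11.8 in experiment 2, and in I-BET151 at 14.5 and 11.9 in experiment 1 and at 10.1 and 13.2 in experiment 2. Both groups overlapped DMSO. The difference was -0.15 for JQ1 (95% interval -0.55 to 0.25, limma adjusted p = 0.6267) and -0.08 for I-BET151 (95% interval -0.48 to 0.32, limma adjusted p = 0.7932). These intervals leave room for a moderate change of CD48 in either direction, and lie apart from those of CD244.

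With CD244 lower, CD48 became the larger share of the surface genes. CD244 made up 75.6% ± 2.47 of the summed RPKM in DMSO, 32.4% ± 4.93 in JQ1 and 30.2% ± 3.7 in I-BET151. CD48 made up 22.6% ± 1.78, 64.3% ± 5.78 and 67.1% ± 4.43 (SD, n = 4 each).

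The remaining receptors were low in every LOUCY group. SLAMF6 was at 0.746 and 0.282 RPKM in DMSO in experiment 1 and at 1.20 and 0.408 in experiment 2, on 4 to 22 reads. JQ1 libraries ranged from 0 to 0.408 RPKM (0 to 6 reads) and I-BET151 libraries from 0.0666 to 0.285 (1 to 4 reads). Ranges overlapped for both inhibitors, and SLAMF6 did not pass the filter. Without the filter the differences were -0.50 for JQ1 (limma adjusted p = 0.01387) and -0.47 for I-BET151 (limma adjusted p = 0.01993), at levels where a library held 22 reads at most. The library with 22 reads, in DMSO, was 1 of the 3 whose levels followed GC content more steeply. LY9 held 1 to 8 reads in each LOUCY library and SLAMF1 0 to 6, and neither was called in LOUCY with or without the filter.

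**Figure D4:**
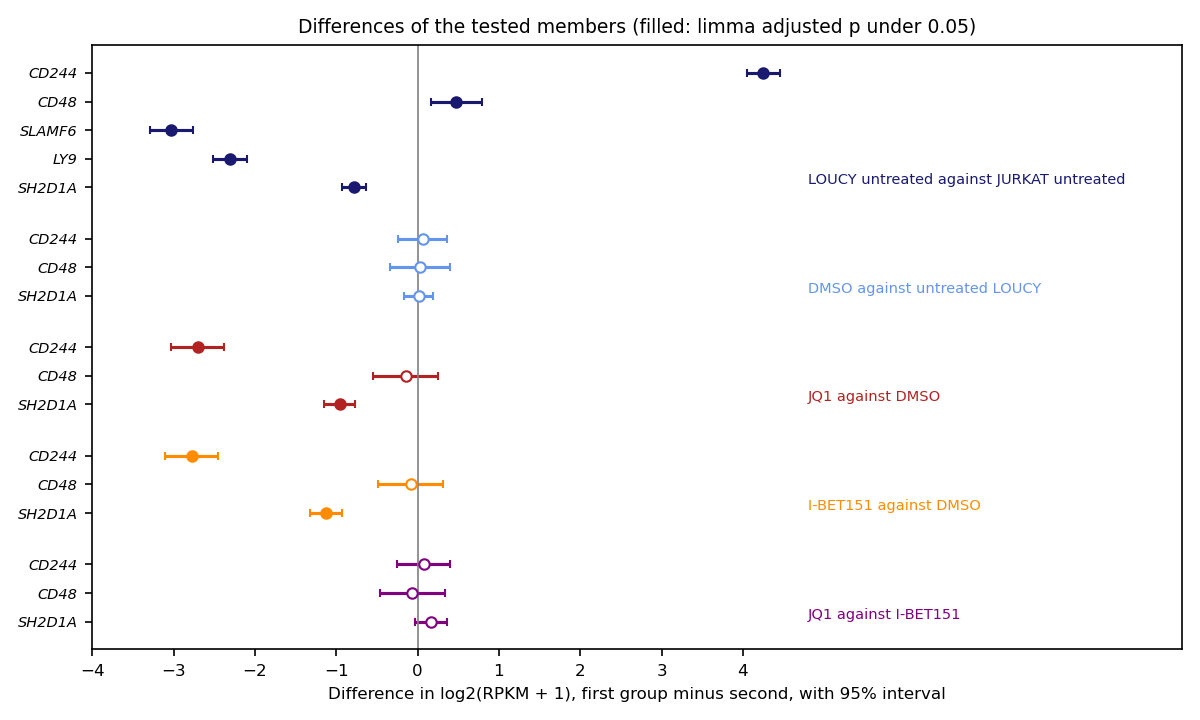
Difference in log2(RPKM + 1) with its 95% interval for each tested gene in the 5 comparisons; filled points have a limma adjusted p under 0.05. CD244 lies at 4.25 between the lines and at -2.70 and -2.78 under the inhibitors, SH2D1A at -0.78, -0.96 and -1.13, and the intervals of CD48 under both inhibitors include 0.

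JQ1 and I-BET151 were compared directly, as 1 pair of compounds over 3 tested members, at unequal doses (250 and 500 nM). CD244 differed by 0.07 (95% interval -0.25 to 0.40, limma adjusted p = 0.9722). SH2D1A differed by 0.17, higher in JQ1 (95% interval -0.03 to 0.36, limma adjusted p = 0.9636), and CD48 by -0.07 (95% interval -0.47 to 0.33, limma adjusted p = 0.9792). None was called, and none had an unadjusted p under 0.05. limma called 0% of all tested genes, as did limma-voom on recovered reads, while 531 had an unadjusted p under 0.05. The intervals bound the differences at these doses and do not show that the compounds act alike.

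CD84, which lies between SLAMF6 and SLAMF1 in the cluster, also fell under both inhibitors. It was at 3.32 ± 0.581 RPKM in DMSO, 0.392 ± 0.125 in JQ1 and 0.411 ± 0.209 in I-BET151 (SD, n = 4 each). The groups did not overlap, the ratios were 8.48 and 8.08, and the log2 differences were -1.63 and -1.62 (limma adjusted p = 4.572e-08 and 5.236e-08). CD84 did not reach 1 RPKM in any inhibitor library and passed the filter only through the groups where it was high. SLAMF7, between CD48 and LY9, was not tested. It was at 0.104 ± 0.0429 RPKM in DMSO, 0.400 ± 0.279 in JQ1 and 0.234 ± 0.167 in I-BET151, on at most 12 reads per library. CD58 was lower in JQ1 (20.3 ± 2.65 RPKM against 43.4 ± 13.9, limma adjusted p = 0.01704), and in I-BET151 it was at 29.9 ± 20.4 RPKM and did not pass (limma adjusted p = 0.114).

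Of 18 tested genes around the cluster on the same band, 1 rose and 2 fell under each inhibitor (over all tested genes, 10.1% rose and 15.9% fell for JQ1, and 10.3% and 15.9% for I-BET151), with medians of -0.01 and 0.03 against -0.01 and 0.00 over all genes. UFC1, an enzyme of the UFM1 conjugation pathway, had the smallest adjusted p and went from 211.9 ± 14.3 RPKM in DMSO to 114.3 ± 4.81 and 112.1 ± 17.97.

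Of the 26 signalling partners, 10 fell and 1 rose under JQ1, and 11 fell and 1 rose under I-BET151. Of all tested genes, 15.9% were called lower for each inhibitor, and 10.1% higher for JQ1 and 10.3% for I-BET151. The partners' median differences were -0.29 and -0.34, against -0.01 and 0.00 over all genes. LCK, a Src-family kinase of T cells, fell from 177.4 ± 27.1 RPKM to 39.7 ± 1.35 and 41.8 ± 9.06 (limma adjusted p = 2.312e-09 and 3.509e-09). LAT, the membrane scaffold of T-cell receptor signalling, fell from 23.5 ± 5.12 to 4.58 ± 0.547 and 5.11 ± 1.13, and the adaptor DOK2 from 35.3 ± 7.13 to 10.5 ± 2.08 and 9.76 ± 1.97. FYN, the kinase that SAP itself binds, did not pass: it was at 11.9 ± 1.08 RPKM in DMSO, 13.4 ± 1.10 in JQ1 and 13.2 ± 1.81 in I-BET151. The genes that rose were ARHGEF7 under JQ1 and BCL10 under I-BET151.

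**Figure D5:**
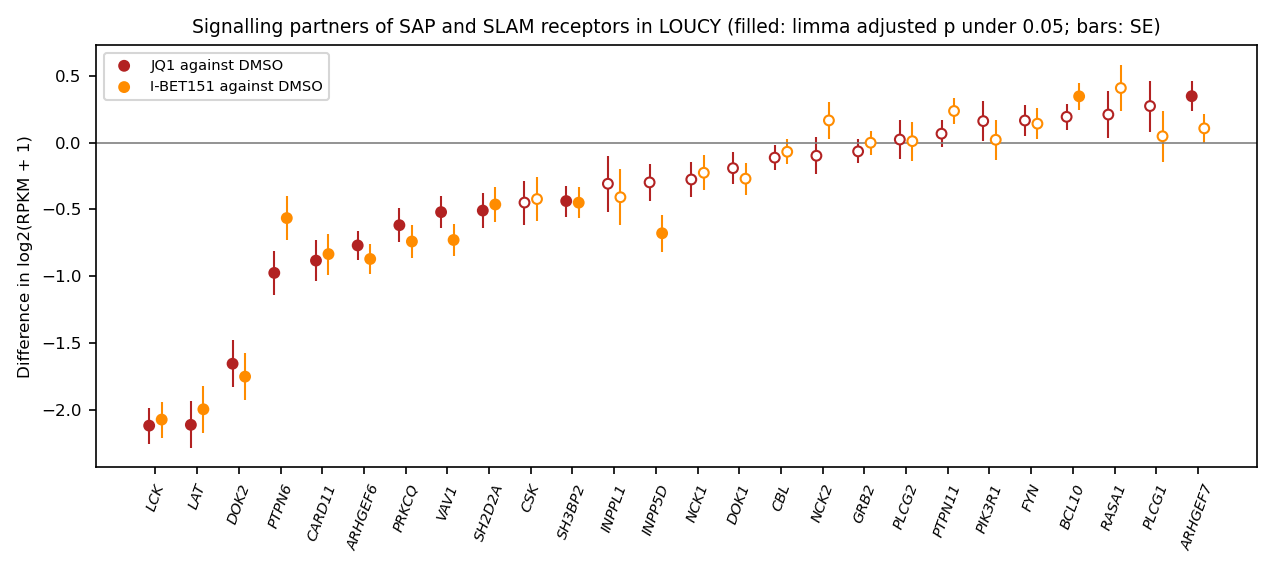
Difference in log2(RPKM + 1) from DMSO, with SE, of 26 signalling partners of SAP and SLAM receptors in LOUCY, ordered by the JQ1 value; filled points have a limma adjusted p under 0.05. LCK, LAT and DOK2 lie lowest under both inhibitors, and FYN lies near 0.

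Of 16 tested transcription factors of T and natural killer cells, 2 rose and 7 fell under JQ1, and 2 rose and 5 fell under I-BET151. Their median differences were -0.30 and -0.18, against -0.01 and 0.00 over all genes. The shares over all tested genes were those given for the partners (10.1% higher for JQ1, 10.3% for I-BET151, and 15.9% lower for each). ETS1 fell from 37.1 ± 3.30 RPKM in DMSO to 18.9 ± 2.07 and 17.9 ± 0.961, GATA3 from 46.9 ± 3.77 to 23.6 ± 5.32 and 28.7 ± 2.97, and ZBTB16 was also called lower by limma under both. MAF and ELF1 rose under both. ZBTB16 passed the filter only through the groups without inhibitor and MAF mainly through the inhibitor groups.

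Levels of listed markers of other blood lineages were also examined, and several of these markers were absent from the table or low. Natural killer cells are a main site of CD244, and of 6 natural killer markers 2 were in the table (KLRD1, NCR1, KLRF1 and GNLY were not). Their summed level was 0.505 to 2.07 RPKM in JURKAT, 168 to 211.3 in untreated LOUCY, 109.2 to 161.3 in DMSO, 50.6 to 66.2 in JQ1 and 39.3 to 67.1 in I-BET151. Nearly all of it was NKG7, a granule protein, at 147.6 ± 25.7 RPKM in DMSO and 56.3 ± 6.82 and 56.9 ± 12.6 in the inhibitor groups. Of 5 myeloid markers in the table, 3 had a mean of at least 1 RPKM in untreated LOUCY and none in JURKAT, and their summed level was 20.9 to 28.7 RPKM in DMSO, 5.18 to 8.59 in JQ1 and 5.996 to 7.93 in I-BET151. Of 5 B-lineage markers, CD79A and CD79B had a group mean of at least 1 RPKM. In the LOUCY fit 3 of the 5 were tested. Under each inhibitor CD79A and CD79B were called lower and the other 1 did not pass (15.9% of all tested genes were called lower for each). The summed level of the list was 322.1 to 589.3 RPKM in DMSO, 242.5 to 335.5 in JQ1 and 174.4 to 351.9 in I-BET151. The summed level of the 8 T-lineage markers was 1568 to 1998 RPKM in DMSO, 1028 to 1082 in JQ1 and 811.8 to 1171 in I-BET151. The erythroid list, 1 of 3 in the table, was at most 0.762 RPKM in any library, and the non-haematopoietic list, 3 of 4 in the table, at most 0.985 RPKM in LOUCY. The part of these lists in the results for CD244 and SH2D1A was not tested.

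Over the 18 LOUCY libraries, the genes whose log2 levels ran most like those of CD244 were GFI1B (Pearson r = 0.9903), LCK (0.9897) and PECAM1 (0.9895), among 11410 other tested genes. For SH2D1A they were ABLIM1 (0.986), KCNMB3 (0.9812) and TSC22D3 (0.9809). For CD48 the highest values were lower, with KNSTRN at 0.7757, C12orf65 at 0.7505 and SBF2 at 0.7423. These are descriptions over libraries that share treatments and experiments, and no test was made of them. GFI1B, a transcriptional repressor, was at 73.7 to 117.4 RPKM in DMSO, 17.3 to 20.9 in JQ1 and 11.5 to 23.2 in I-BET151. Like CD244, it was low in JURKAT, at 0 to 0.0817 RPKM. PECAM1 was also lower in JURKAT than in untreated LOUCY (means of 10.8 and 26.5 RPKM), but LCK was higher (346.3 and 198.3). ABLIM1, KCNMB3 and TSC22D3 went opposite to SH2D1A between the lines. Their means were 5.31, 0.315 and 1.35 RPKM in JURKAT and 29.4, 16.6 and 357.5 in untreated LOUCY.

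Set in order of mean level, CD244 ran untreated LOUCY and DMSO (42.6 and 44.0 RPKM), then JQ1 and I-BET151 (6.01 and 5.67), then JURKAT (1.27). The members of each of the first pairs did not differ beyond their spread, and the steps between them had no overlap. SH2D1A ran JURKAT (226.1), DMSO and untreated LOUCY (132.7 and 131.6), then JQ1 and I-BET151 (67.8 and 60.2), with no overlap between the steps. For CD48 the order was untreated LOUCY, DMSO, I-BET151, JQ1 and JURKAT (13.6, 13.1, 12.4, 11.7 and 8.97 RPKM), and no neighbouring LOUCY groups were separated. JURKAT lay below all DMSO, JQ1 and I-BET151 libraries for CD48, but these were not compared by a test. The share of all genes whose groups do not overlap is not given here. Lack of overlap is therefore not shown to be particular to these genes.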

How the data were processed

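Polyadenylated RNA of 24 libraries was made into cDNA by Smart-seq2 and tagmented with Nextera XT, per the labels' protocols. The authors deposited RPKM values of 15862 genes. STAR 2.5.1b, edgeR 3.10.5, Subread 1.4.5-p1, featureCounts and the build hg38 are named, with no order or role, per the submitters' processing notes. Gene lengths and annotation were not stated there. Whole reads were recovered from the steps of the RPKM values for 100% of genes (tolerance 0.01 reads). Their totals give the depth, which covers counting error only, and 18 replicate pairs all differed by more than counting noise.

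Values were tested as log2(RPKM + 1) with limma 3.58.1 (R 4.3.3; trend, two-sided, experiment as a term) in genes reaching 1 RPKM in 4 or more of the fitted libraries, checked on simulated data. P-values were adjusted over all tested genes. The members, the gene lists and the tests were chosen with earlier results of these data known. Named genes were the members, HEXIM1, up to 3 per direction of each list by adjusted p, and the 3 most alike over LOUCY libraries; FYN was added after its values were seen. Alternatives are in the closing section. Positions are from GENCODE 29, and promoters from RefSeq.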

Additional observations from a re-analysis of the deposited data

Results flagged for a closer look

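SLAMF1 in DMSO replicate 1 of experiment 2 stood apart at 0.389 RPKM (6 reads), while the other 3 DMSO libraries were at 0.0811 to 0.0889 RPKM with 1 read each. Its gap to the nearest library was 0.974 of the range of the group. This was 1 of 30 groups examined, and chance gives about 1 in 20. The library was also 1 of the 3 of steep GC slope.

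CD48 moved in opposite directions between DMSO and untreated LOUCY in the experiments. In experiment 1 both DMSO libraries (11.4 and 13.4 RPKM) lay above all 3 untreated ones (8.39 to 9.80), and in experiment 2 both (13.2 and 14.6) lay below all 3 (16.4 to 20.1). The difference between the experiments was -0.77 on the log2 scale, and the interaction did not pass over all genes (limma adjusted p = 0.9637).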

How the results depend on the processing

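The calls of CD244 and SH2D1A under both inhibitors, and those of CD244, SLAMF6, LY9 and SH2D1A between the lines, kept their direction and their side of the threshold under every alternative run: another pseudocount, no filter, no experiment term, rescaled libraries, the replicate block, each experiment alone, each library left out, and, chosen after seeing the data, 3 libraries of steep GC slope left out and limma-voom on recovered reads. SLAMF6 and LY9 passed the filter only through JURKAT, so the direction they kept between the lines adds no support. Under the inhibitors, CD244 ranged from -2.877 to -2.546 for JQ1 and from -2.989 to -2.562 for I-BET151, and SH2D1A from -1.017 to -0.9022 and from -1.201 to -1.054. Voom moved the median of all genes between the lines to -0.1181, against -0.017.

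These values changed direction, side of the threshold or size, and the cause was not tested. In experiment 1 alone, CD48 between the lines was 0.01132. There, DMSO against untreated gave -0.1355 for CD244, -0.1194 for SH2D1A and 57 genes called (20 over both experiments), I-BET151 against DMSO gave 0.08004 for CD48, and JQ1 against I-BET151 gave -0.1674 for CD244 and 1 gene called. In experiment 2 alone, DMSO against untreated gave -0.3535 for CD48 and 0 genes called by limma, JQ1 against I-BET151 gave 0.01059 for CD48, and the inhibitors called 392 and 454 genes, against 2971 and 2999, with fewer libraries in the fit. Without the 3 steep libraries, DMSO against untreated gave -0.04906 for SH2D1A and 34 genes, I-BET151 gave 0.007692 for CD48, and JQ1 against I-BET151 gave -0.04273 for CD244 and 1 gene. DMSO against untreated called 13 genes with no experiment term and 7 by voom.

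With 1 library left out at a time, DMSO against untreated called 12 to 26 genes, with CD244 from -0.02184 to 0.1032, CD48 from -0.05805 to 0.1292 and SH2D1A from -0.03362 to 0.058. CD48 ranged from -0.2129 to 0.06639 for I-BET151 against DMSO, and JQ1 against I-BET151 gave -0.05198 to 0.229 for CD244 and -0.2134 to 0.06598 for CD48. Below 0 within these ranges were also, for DMSO against untreated, CD48 at -0.03816 and -0.01466 without untreated replicates 2 and 3 of experiment 1 and -0.03638 without DMSO replicate 1 of experiment 1, and SH2D1A at -0.001163, -0.004185 and -0.0007535 without untreated replicates 1, 2 and 3 of experiment 2. So was CD244 for JQ1 against I-BET151, at -0.03698 without I-BET151 replicate 1 of experiment 2. None of these values was called. With the replicate block, DMSO against untreated called 4 genes, 2836 were called for JQ1 and 2883 for I-BET151, and no call of a member changed. As deviations from the mean of their group and experiment, same-numbered libraries correlated at -0.548 to 0.697. Between groups of 2 libraries per experiment both replicate numbers give the same r, so these are not separate checks. The highest, for I-BET151 against DMSO in experiment 2, involved libraries of steep GC slope. The numbers were not taken to pair the libraries. At these depths SLAMF1 rested on at most 8 reads per library in all groups, and in LOUCY libraries SLAMF6 rested on at most 22 and LY9 on at most 8, which limits their precision.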
